A study of Homo sapiens with 5 samples.

Results

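The regions described here are the 655 of 3147 listed regions that belong to experiment 1, which set GFP-(GR)50 against GFP alone in HEK-293 cells. Every region of both lists was taken: 183 from the GFP-(GR)50 library and 472 from the GFP library. HEK-293 is a human embryonic kidney line, and GFP-(GR)50 carries 50 repeats of glycine-arginine joined to GFP, a form of the poly-GR that is made from the expanded C9ORF72 repeat in ALS and FTD. Both groups were transfected with lipofectamine, one with GFP-(GR)50 and the other with GFP, so the fusion came from transfection and not from an expanded repeat in the genome. Both were crosslinked at 100 mJ/cm2 and 254 nm, both lysates received RNase I at 0.04 units/ml, and both were pulled down on GFP-binding beads for 1.5 hours. RNA was recovered from the membrane at the size of the fusion, and from the same place for GFP, and read as single reads of 110 nt. Experiment 2 (untransfected cells, GFP-(GP)10 and a further GFP-(GR)50 library, RNase I at 0.02 units/ml) is used below only as a set of separate libraries. The lists hold crosslinked regions and no expression levels, so the cell line was not checked against markers.

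In CLIP-Seq, ultraviolet light joins protein to the RNA it touches, and the recovered RNA is mapped as regions of piled-up reads. Ribosomal RNA (rRNA) is transcribed by RNA polymerase I as a 45S precursor in which external and internal transcribed spacers (ETS, ITS) flank the 18S rRNA of the small ribosomal subunit and the 5.8S and 28S rRNA of the large one. The 5S rRNA of the large subunit, tRNA, Y RNA, 7SL, 7SK, U6 and vault RNA come from RNA polymerase III. Beside the tandem repeat units, the genome holds many scattered, partly diverged copies of 28S and 18S sequence, which are called scattered copies here.

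The GFP-(GR)50 list held 56588 reads, with multimapping reads scaled by the authors, and 1603 reads that map to one place. The GFP list held 30598 and 6230. The lowest listed value is 5 reads, so absence from a list does not mean 0 reads, and the total depth of the libraries is unknown. Each side is a single library, so there is no spread between cultures and no test between the conditions. Intervals are exact Clopper-Pearson 95% intervals (for a ratio, made from the interval of the share), which cover counting error alone and are too narrow for scaled reads.

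Few sequences of listed regions can be shown from the reference tables, which are RefSeq on GRCh38.p14. The first 3 mature microRNA entries lie in the 5′ ETS or its copies, where the lists differ in how far regions extend, and the last lies in a copy of the mitochondrial 16S rRNA that had a region only in GFP-(GR)50. Capitals mark the seed, bases 2 to 8.
hsa-miR-3648: aGCCGCGGggaucgccgaggg
hsa-miR-10396b-5p: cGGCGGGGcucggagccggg
hsa-miR-10396b-3p: gGCCCCGGgcccucgaccggac
hsa-miR-4485-3p: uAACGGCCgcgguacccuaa
These are names of positions in the lists and not a measure of the mature microRNAs, since the regions there are up to 7352 bp wide. The letters of hsa-miR-3648 (chr21:8987026-8987046, plus strand) lay inside a GFP-(GR)50 region of 458 reads (chr21:8986603-8988748) and under no GFP region, in a gap between GFP regions of the same copy. The letters of hsa-miR-10396b (chr21:8436324-8436374) lay under a region in both lists, with 2169 reads in GFP-(GR)50 and 1192 in GFP.

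The next sequences stand for the small RNAs that the GFP list held in greater number. The first is the 5′ end of the U1 copy RNU1-28P (chr14:34556359-34556389, minus strand), with the letters ACTTACCTG in capitals, which hold the part of U1 that pairs with 5′ splice sites. The others are GFP regions that the files annotate as tRNA, with capitals for the letters GGTTCNA, which open the B box, a promoter element inside tRNA genes.
U1 copy RNU1-28P: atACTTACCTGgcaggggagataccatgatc
tRNA-Arg-CGY: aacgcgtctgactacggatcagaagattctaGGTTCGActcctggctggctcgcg
tRNA-Pro-CCA: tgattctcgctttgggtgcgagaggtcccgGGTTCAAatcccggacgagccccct
tRNA-Ala-GCY: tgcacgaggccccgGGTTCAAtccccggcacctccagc
The tRNA regions are chr3:45688996-45689051 on the minus strand (43.2 reads in GFP), chr16:3188113-3188168 on the plus strand (22.0 reads) and chr6:28863682-28863720 on the minus strand (7.12 reads). None of them had a region in GFP-(GR)50. They show how such a region looks and were taken because the reference table holds them, not for their values. Searched on both strands, GGTTCNA is in 8.23% of 35116 promoter windows of 300 bases and ACTTACCTG in 0.188%. A match describes the letters and is not a binding site.

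The comparison asks which RNA was recovered with GFP-(GR)50 beside the background recovered with GFP. Most listed reads lay in rRNA, which took 97.1% (97.0 to 97.2) of listed reads in GFP-(GR)50 and 64.0% (63.4 to 64.5) in GFP. The share was lower, 75.6%, in the second GFP-(GR)50 library, and 57.5% in GFP-(GP)10 and 43.4% in untransfected cells. In GFP-(GR)50 of experiment 1, 28S rRNA led the list with 35030 reads in 63 regions, ahead of 18S with 17708 reads in 39 regions. In GFP, 18S led with 10166 reads in 36 regions and 28S followed with 9028 reads in 22. Regions that the files annotate with the precursor alone, and with no mature rRNA, had 2150 reads in 7 regions of GFP-(GR)50 and 124 in 11 regions of GFP. They are not the same stretch: 5 of the 7, with 1691 reads, lie where GFP has a single region annotated 28S, and on the copy RNA45SN1 that region starts in ITS2 and 541 of its 1018 bp are 28S. The other 2, with 459 reads, and all 11 of GFP lie elsewhere. For 5S, GFP had more reads, with 46.0 in 7 regions against 5 in 1 region of GFP-(GR)50. For 5.8S, scattered copies had 61.1 reads in 4 regions of GFP-(GR)50 and 36.6 in 2 of GFP. GFP also had 1 repeat-unit region annotated 5.8S, of 1754 bp and 172 reads, so that the order over all 5.8S regions turns on that region. The 5.8S sequence inside most of the wide repeat-unit regions is counted with 18S here, because those regions run over both.

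The balance of 28S to 18S reads does not depend on how the libraries are scaled, and scattered copies let it be read at many places. It does depend on which copies are listed, since no region has fewer than 5 reads. Copies share multimapping reads, so they are not separate measurements. The ratio of 28S to 18S reads, like the other ratios within a list below, was chosen after seeing the data. In scattered copies, GFP-(GR)50 had 2361 reads in 52 regions of 28S type and 583 reads in 30 regions of 18S type, a ratio of 4.05 (3.70 to 4.44). GFP had 308 reads in 14 regions of 28S type and 707 reads in 27 of 18S type, a ratio of 0.436 (0.38 to 0.499). With reads that map to one place alone, the ratios were 3.74 (3.11 to 4.53), from 535 and 143 reads, and 0.287 (0.203 to 0.399), from 47 and 164 reads. The intervals of the lists did not overlap under either count. At copies with a region in both lists alone, the ratios of scaled reads were 2.73 in GFP-(GR)50 and 0.477 in GFP.

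The libraries of experiment 2, which the choice of these lists did not use, gave the same measure. The ratio in scattered copies was 3.29 (3.09 to 3.49) in the second GFP-(GR)50 library, 0.701 (0.497 to 0.984) in GFP-(GP)10 and 0.440 (0.359 to 0.537) in cells that had not been transfected. With reads that map to one place it was 2.96, 0.813 and 0.433 in that order. Both GFP-(GR)50 libraries thus lay above 1 and each of the 3 control libraries below 1 under both counts, although the interval of GFP-(GP)10 for reads that map to one place, 0.360 to 1.80, spans 1. Within the repeat units the picture was less even. There the ratio of scaled reads was 1.91 (1.87 to 1.94) in GFP-(GR)50, or 2.01 with the 5 precursor regions at 28S loci counted as 28S, and 0.922 (0.895 to 0.949) in GFP, but 2.58 in GFP-(GP)10 and 1.91 in untransfected cells. Over one-place reads of the units it was 4.86 in GFP-(GR)50 and 4.75 in GFP. The second GFP-(GR)50 library gives no value there, since 8 of its regions run over 18S and 28S together.

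**Figure D1:**
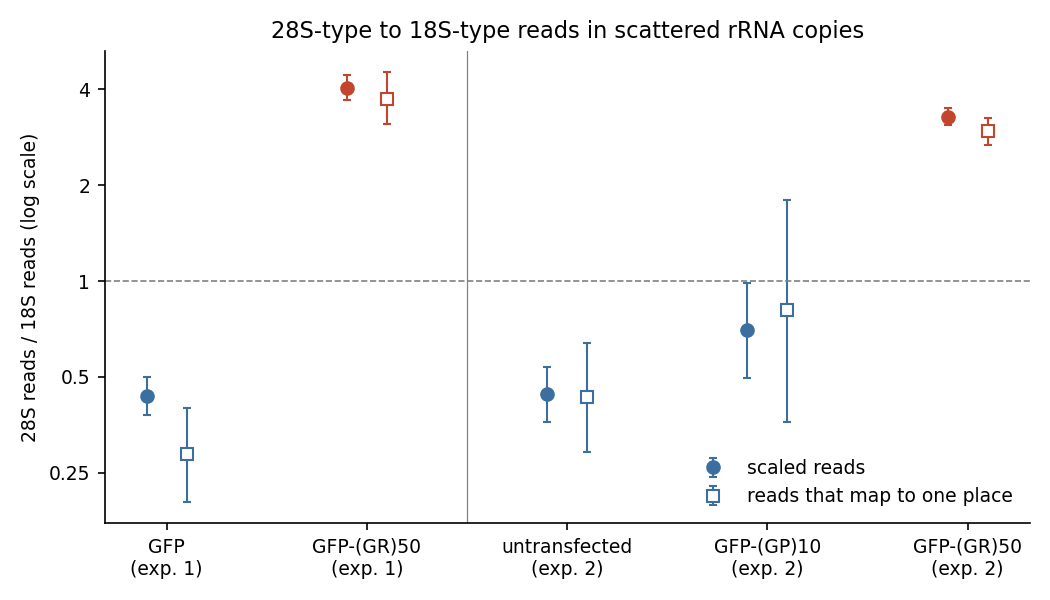
Ratio of 28S-type to 18S-type reads in scattered rRNA copies (vertical log axis) in each of the 5 libraries, with scaled reads as filled circles and reads that map to one place as open squares; bars are exact 95% intervals of counting error and the vertical line parts the experiments. The GFP-(GR)50 libraries (red) lie between 2.96 and 4.05, and the control libraries (blue) between 0.287 and 0.813. Each ratio takes the copies in its own list, which differ between libraries.

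Copy by copy, 28S and 18S also lay apart. A locus here is a place where regions of the lists share at least 1 bp, strand included, and 87 of 534 loci had a region in both. At 14 scattered 28S copies in both lists, GFP-(GR)50 had more reads than GFP at 12, with a median ratio of 2.77 and a range of 0.493 to 15.4. At 20 scattered 18S copies it had more at 8, with a median ratio of 0.758 and a range of 0.391 to 1.98. The middle values, from the lower to the upper quartile, were 2.15 to 4.53 for 28S copies and 0.506 to 1.29 for 18S copies, and did not overlap. These reads are unscaled, and GFP-(GR)50 had 1.85 times the listed reads of GFP. The middle values of 28S copies lie above that factor and those of 18S copies below it. Because copies share multimapping reads and come from 1 library a side, these numbers describe the copies and are not a spread between replicates.

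Single copies show the spread. The 28S copy in GCNT1 on chromosome 9 had 384 reads in GFP-(GR)50 and 25 in GFP, and 35 against 5 reads that map to one place. The copy at chr5:71850918-71851118 had 139 and 29.4 reads, and 49 against 6 that map to one place. The copy in HFM1 had 96.1 and 37.1 reads. The exceptions were the copy in AD000090.1, with 32.5 reads against 65.9, and the copy in AL928646.1 on chromosome X, with 43.1 against 46.0. Of the 18S copies, the one at chr20:30487316-30487740 had 48.4 reads in GFP-(GR)50 and 112 in GFP, and 2 against 5 that map to one place. One in ANKRD30BL had 20.6 and 49.3, and 15 against 34 that map to one place. The copy at chr20:29299398-29299930 had 91.9 and 113, but 33 against 3 that map to one place, so its direction turned with the count. The 18S copy in PDE3A had slightly more reads in GFP-(GR)50, 54.1 and 42.3, with 0 that map to one place in either list.

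All 14 of the GFP regions in scattered 28S copies had a match in GFP-(GR)50, while 37 of the 52 GFP-(GR)50 regions had none in GFP. The highest of these 37 were the copy in CTNNA3, with 148 reads, and the copy at chr1:42313714-42313748, with 126 reads of which 78 map to one place. Others lay in TEX101 (68.1 reads), SORCS2 (61.6 reads) and USP53 (21.7 reads). In experiment 2, 33 of the 37 overlapped a region of the second GFP-(GR)50 list, 2 a region of the untransfected list and 0 a region of the GFP-(GP)10 list. Those lists hold 59, 11 and 7 regions in scattered 28S copies, in that order, so few overlaps with the controls were possible. The genes named here only mark where a copy lies.

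**Figure D2:**
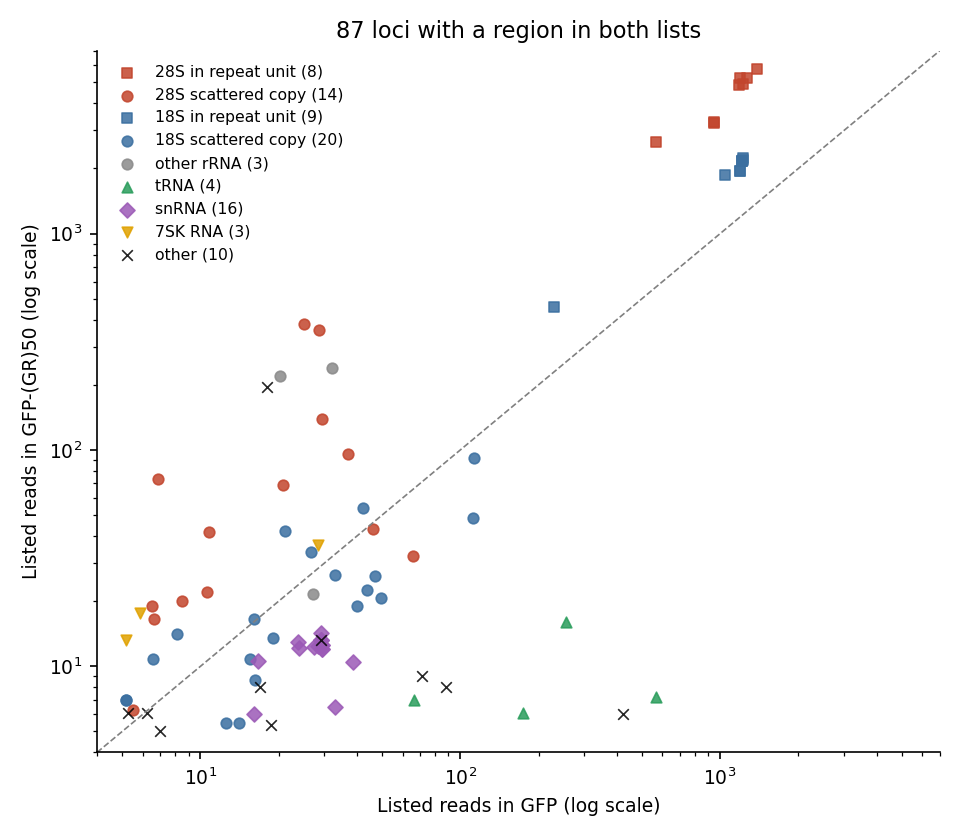
Listed reads in GFP (horizontal, log scale) and GFP-(GR)50 (vertical, log scale) at the 87 loci with a region in both lists; each point is a locus, coloured and shaped by RNA, and the dashed line marks equal reads. The line is passed by 12 of 14 scattered 28S copies and 8 of 20 scattered 18S copies, and the 4 tRNA and 16 snRNA loci lie below it. Reads are not scaled between the lists.

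In the repeat units, both lists covered the 45S precursor, but to a different extent. On RNA45SN1 (chr21:8433222-8446572, plus strand), GFP-(GR)50 regions covered 100% of the 5′ ETS to within 1 bp, and GFP regions 61.9% of it. Coverage of 18S, ITS1 and 5.8S was complete in both. Of 28S, 98.5% was covered in GFP-(GR)50, which had a gap of 77 bp there, and 100% in GFP. The 3′ ETS was covered over 100% of its 361 bp in GFP-(GR)50 and over 35.7% in GFP. In both lists a gap fell in ITS2, of 94 bp in GFP-(GR)50 and 120 bp in GFP.

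Depth can be read only over whole regions, and the regions of the lists do not end at the same places. On RNA45SN1, 1 region of GFP-(GR)50 runs over 7352 bp from the start of the 5′ ETS through 18S, with 295 reads per kb. The GFP region with 18S is 4366 bp long, with 273 reads per kb, and the short GFP regions before it in the 5′ ETS had 15.3 and 16.9, so these depths do not compare 18S with 18S. At 2 other copies each list has 1 region with 18S, of nearly the same length. At chr21:8392320-8396321 the lengths are 3994 bp in GFP-(GR)50 and 3926 bp in GFP, and the depths 488 and 304 reads per kb. At chr21:8209287-8213320 the lengths are 4026 and 4023 bp, and the depths 483 and 295. The 28S locus of RNA45SN1 had 843 reads per kb over 5841 bp of GFP-(GR)50 regions and 217 over 5656 bp of GFP. Both parts thus had more unscaled reads per kb in GFP-(GR)50 where lengths were alike, by a wider margin at 28S than at 18S. At those 2 copies the 18S reads were 1.63 and 1.64 times those of GFP, below the 1.85 between all listed reads. Scaled to all listed reads, 18S was therefore lower there in GFP-(GR)50. The 28S locus, with 4.01 times the reads, stayed higher. Over the copies of the repeat unit, the ratio of GFP-(GR)50 to GFP reads ran from 1.63 to 2.00 at 9 loci of the 18S part and from 3.44 to 4.69 at 8 loci of the 28S part, and did not overlap. In experiment 2, 5′ ETS coverage on RNA45SN1 was 100% in GFP-(GR)50, 33.3% in GFP-(GP)10 and 55.1% in untransfected cells, and 3′ ETS coverage was 100%, 30.5% and 4.16%. Those lists hold 134222, 7468 and 22519 reads, in that order. The extent of listed regions can depend on the number of reads, so in neither experiment is spacer coverage compared at equal depth. At 2 loci upstream of 18S that are annotated without a mature rRNA, the ratios of GFP-(GR)50 to GFP reads in experiment 1 were 7.49 and 10.9. Copies share their reads through the scaling of multimapping reads, so they are not separate measurements. The 5 widest regions of each list all lay in these units, with 7355 bp at most in GFP-(GR)50 and 5656 bp in GFP.

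**Figure D3:**
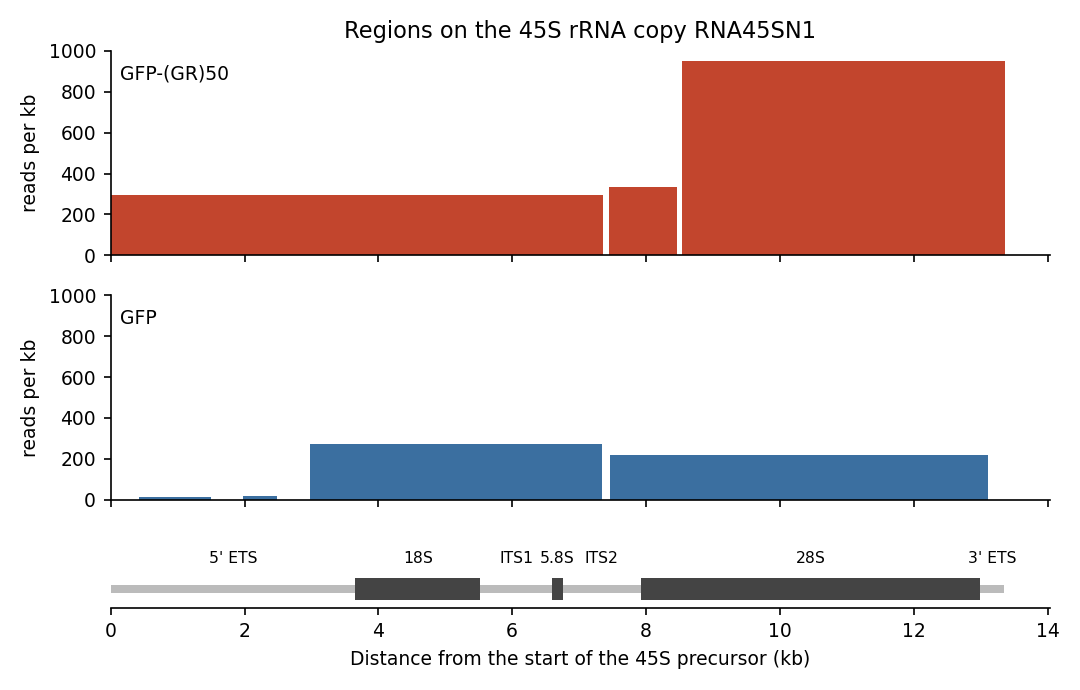
Read depth of each listed region (vertical, reads per kb) against distance from the start of the 45S precursor on RNA45SN1 (horizontal, kb) in GFP-(GR)50 (red) and GFP (blue), with the RefSeq positions of the mature rRNAs as dark bars and of the spacers as pale bars. The region with most of 28S has 950 reads per kb in GFP-(GR)50 and 217 in GFP; the region with 18S has 295 over 7352 bp in GFP-(GR)50, the 5′ ETS included, and 273 over 4366 bp in GFP.

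Outside rRNA, the direction of many differences turns on how the lists are scaled. GFP-(GR)50 had 1.85 times the listed reads of GFP, but GFP had 6.75 times the reads outside rRNA, 11025 against 1634. Moreover 64.5% of the GFP-(GR)50 reads outside rRNA lay in 5 regions without an rRNA annotation that sit in rRNA repeat units (0.655% in 7 regions of GFP), which leaves 580 reads in GFP-(GR)50 and 10953 in GFP, 18.9 times as many. One such stretch, chr21:8250197-8252596, had 196 reads in GFP-(GR)50 and 18 in GFP. These stretches make up most of what the files call no feature or repeat element in GFP-(GR)50. Values for small RNAs are therefore given as reads, scaled to all listed reads and scaled to reads outside rRNA. Where a direction changes once the unannotated regions of repeat units are left out too, this is said as scaled without the units, a setting chosen after seeing the data.

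**Figure D4:**
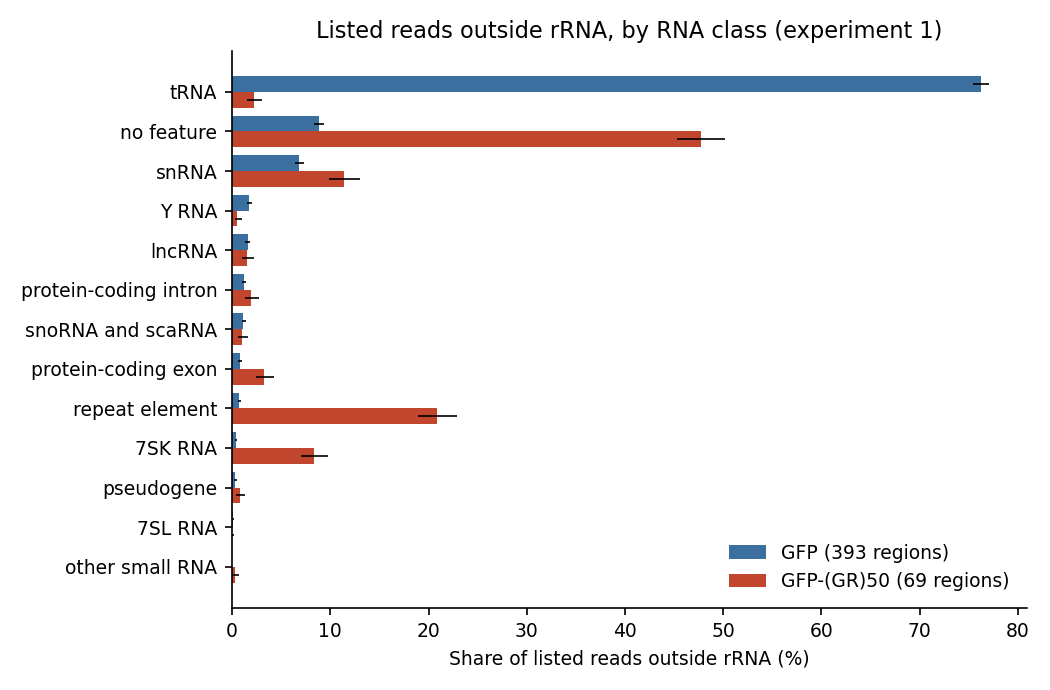
Share of listed reads outside rRNA (horizontal, %) in each RNA class for GFP (blue, 393 regions) and GFP-(GR)50 (red, 69 regions), with exact 95% intervals of counting error. tRNA takes 76.2% in GFP and 2.23% in GFP-(GR)50, and 7SK RNA 0.405% and 8.30%.

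Over 142 gene names or RNA species with a region in either list, 16 had one in both, 43.2% of the 37 names of GFP-(GR)50 and 13.2% of the 121 names of GFP. Called here are names at least 4-fold apart, a name without a region being set at 5 reads, so that its fold is a bound. Scaled to all listed reads, 58 names (40.8%) were higher in GFP and 1 (0.704%) in GFP-(GR)50, the regions annotated with the rRNA precursor alone. With the 5 of them that lie at 28S loci counted as 28S, 0 were. Scaled to reads outside rRNA, with 137 names, 19 (13.9%) were higher in GFP and 22 (16.1%) in GFP-(GR)50. All 19 were tRNA species, and they were also among the 58. Scaled without the units, 5 of 137 names (3.65%) were higher in GFP, all tRNA species among the 19, and 24 (17.5%) in GFP-(GR)50. None of the 22 was 4-fold higher in GFP-(GR)50 scaled to all listed reads. Of these 22, 21 had no region in GFP and between 5 and 12.2 reads in GFP-(GR)50. With GFP set at 5 reads, 5 reads in GFP-(GR)50 already give 6.75-fold, or 18.9-fold scaled without the units. Every name found only in GFP-(GR)50 is thus called there, whatever its reads. Scaled to all listed reads, the 21 reach at most 1.32-fold, so neither outcome describes these names.

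tRNA, the adaptor of translation, was the main RNA of the GFP list outside rRNA. It had 8407 reads in 230 regions there, in 45 species for 20 amino acids as the files name them (selenocysteine included). The GFP-(GR)50 list had 36.5 reads in 4 regions of 3 species. By codon as the files give it, tRNA-Glu-GAG had 1304 reads in 13 regions of GFP and 7.25 in 1 region of GFP-(GR)50, 333-fold higher in GFP scaled to all listed reads, 26.6-fold scaled to reads outside rRNA and 9.51-fold scaled without the units. tRNA-Lys-AAA had 814 reads in 12 regions and 22.2 in 2, which is 1.94-fold higher in GFP scaled without the units. tRNA-Arg-CGG had 138 in 3 regions and 7 in 1, which is 1.04-fold. Species with no region in GFP-(GR)50 included tRNA-Asp-GAY (852 reads in GFP, at least 25.3-fold higher outside rRNA), tRNA-Lys-AAG (533, at least 15.8-fold), tRNA-His-CAY (507, at least 15.0-fold) and tRNA-Asn-AAC (423, at least 12.5-fold). Scaled without the units, these 4 were at least 9.02-fold, 5.64-fold, 5.36-fold and 4.48-fold higher in GFP, and with tRNA-Glu-GAG they are the 5 species that stayed past 4-fold. tRNA-Gly-GGA followed with 361 reads, tRNA-Arg-CGA with 326, tRNA-Tyr-TAC with 295 and tRNA-Arg-AGG with 293.

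Glutamate and lysine tRNAs together led the GFP list, with 16.2% and 16.0% of its tRNA reads, ahead of arginine with 11% and aspartate with 10.1%. The regions had a median of 17.5 reads, from 5 to 568, and 19 had at least 100. Their median width was 55 bp (quartiles 47 and 73), shorter than many whole tRNAs. In 85 of 230 regions no read mapped to one place. At the 4 loci in both lists the reads were 568 in GFP and 7.25 in GFP-(GR)50 for a tRNA-Glu-GAG on chromosome 13, 255 and 16.1 for a tRNA-Lys-AAA on chromosome 17, 175 and 6.10 for another on chromosome 1, and 66.5 and 7 for a tRNA-Arg-CGG on chromosome 16. The lowest of these ratios of GFP to GFP-(GR)50 reads, 9.51, exceeds the 6.75 that separates the lists outside rRNA, so GFP was higher at each of the 4 under that scaling and that to all reads. It exceeds the 18.9 without the units at 2 of the 4, and the direction turns at the tRNA-Arg-CGG and at the tRNA-Lys-AAA on chromosome 17. Of the 226 GFP tRNA regions without a match, 62 (27.4%) overlapped a region of GFP-(GP)10, 33 (14.6%) of the second GFP-(GR)50 list and 5 (2.21%) of untransfected cells. Those lists hold only 68, 39 and 7 tRNA regions, in that order, which limits the overlaps. Of their reads outside rRNA, tRNA took 23.0%, 1.44% and 0.445%, against 2.23% in GFP-(GR)50 of experiment 1. A low tRNA share was thus found in untransfected cells too.

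7SK RNA, which holds the elongation factor P-TEFb in an inactive complex, was the named RNA with most reads after rRNA and U1 in GFP-(GR)50. It had 136 reads in 10 regions there and 44.7 in 4 regions of GFP. The gene itself, RN7SK, had 36.4 and 28.4 reads, and the remainder lay in dispersed copies such as RN7SKP203 (23.4 reads, GFP-(GR)50 only), RN7SKP255 (17.7 and 5.85) and RN7SKP176 (13.2 and 5.17). GFP-(GR)50 was higher by 20.5-fold scaled to reads outside rRNA, by 57.4-fold scaled without the units and by 1.64-fold scaled to all listed reads. Set against U1 within the same list, the 7SK ratio was 0.829 (0.656 to 1.05) in GFP-(GR)50 and 0.111 (0.0804 to 0.153) in GFP. In experiment 2 it was 2.87 (2.46 to 3.35) in GFP-(GR)50, 0.0327 in untransfected cells and 0.191 in GFP-(GP)10. All 7 of the 7SK regions found only in GFP-(GR)50 overlapped a region of the second GFP-(GR)50 list, and 0 overlapped one of either control there. The second GFP-(GR)50 list holds 26 7SK regions and each control only 1, at RN7SK itself, so few overlaps with the controls were possible. Only 15 of the 136 reads and 8 of the 44.7 map to one place.

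U1, the spliceosomal snRNA that recognises 5′ splice sites, had 164 reads in 13 regions of GFP-(GR)50 and 402 in 19 of GFP. At the 13 copies in both lists GFP had more reads each time, with 16.7 to 29.4 against 10.6 to 14.2, and the RNU1-28P copy printed above had 29.3 against 12.1. These copies share reads, and only 11 reads mapped to one place in each list. Scaled to reads outside rRNA, U1 was higher in GFP-(GR)50 and not in GFP. U2, which pairs with the branch point, had 17.0 reads in 2 regions of GFP-(GR)50 and 234.5 in 18 of GFP, and GFP was higher by 25.5-fold scaled to all listed reads and by 2.05-fold scaled to reads outside rRNA. Scaled without the units the direction of U2 turned, with GFP-(GR)50 higher by 1.37-fold. U5, which holds the exon ends, had 19.0 reads in 2 regions and 90.0 in 7, and its direction turned with the scaling as that of U1 did. The ratio of U1 to U2 was 9.64 (5.84 to 17.0) in GFP-(GR)50 and 1.72 (1.46 to 2.03) in GFP, but 2.06 in the second GFP-(GR)50 library and 3.06 in untransfected cells. Of the lists of experiment 1, U4, U11 and U12 had regions in GFP alone, led by RNU4-2 with 20.1 reads, RNU12 with 12.0 and RNU11 with 10.5. In experiment 2, the second GFP-(GR)50 list held U4 with 10.4 reads and U12 with 14, the latter also listed in untransfected cells with 8, and U11 was in no list.

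Other small RNAs were mostly GFP regions. Y5 RNA, a part of Ro ribonucleoproteins, reached 71.0 reads in GFP against 9 in GFP-(GR)50, all mapping to one place, and the regions matched within 1 bp. RNY4 had 32.8 reads, RNY1 32.7 and RNY3 7.28 in GFP, with no region in GFP-(GR)50. The vault RNA VTRNA1-2 (14 reads) and the 7SL genes RN7SL1 and RN7SL2 (6.78 and 5.62 reads), whose RNA is the core of the signal recognition particle, were likewise in GFP alone among the lists of experiment 1. In the second GFP-(GR)50 list 7SL had 24.3 reads and VTRNA1-2 had 5, while Y1, Y3 and Y4 were in no list of experiment 2. RMRP, the RNA of the RNase MRP that cuts the rRNA precursor, reached 17.0 reads in GFP against 8 in GFP-(GR)50, and its direction turned with the scaling. U3 snoRNA, which guides early cleavage of that precursor, had 82.9 reads in 5 copies in GFP and 5.34 reads in 1 copy, SNORD3A, in GFP-(GR)50. Scaled to all listed reads, Y5 and U3 were 14.6-fold and 28.7-fold higher in GFP, and scaled to reads outside rRNA 1.17-fold and 2.3-fold. Scaled without the units both turned, with GFP-(GR)50 higher by 2.40-fold for Y5 and 1.22-fold for U3. In experiment 2, U3 had 134.9 reads in the second GFP-(GR)50 list, 58.2 in untransfected cells and 26.6 in GFP-(GP)10. RMRP had 31.5 reads and Y5 had 7 in the second GFP-(GR)50 list, and neither was in the control lists there.

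Protein-coding transcripts left single weak regions. No gene name from a protein-coding exon or intron region was in both lists, with 17 names in GFP-(GR)50 and 37 in GFP. Exon regions in GFP-(GR)50 were 10, with 5 to 6.57 reads, and 7 of them had exactly 5, the lowest value listed. They lay in MTRNR2L8 and MTRNR2L4, which are nuclear copies of the mitochondrial 16S rRNA gene, in the transcriptional co-repressor IRF2BP2, the kinase PAK1, the poly(ADP-ribose) polymerase PARP1 and the CCAAT-binding subunit NFYC, and in BSDC1, ADCK1, FAM53C and SLC25A27. The 15 exon regions in GFP had 5 to 8.5 reads, the highest in HIST1H3B, a histone H3 gene, and in MTRNR2L1, and included EEF2, EIF4B and RPS14 of the translation machinery with 5, 5 and 6 reads. The second GFP-(GR)50 list held EEF2 with 47.9 reads in 6 regions, and had no region in EIF4B or RPS14. Intron regions were 6 in GFP-(GR)50, led by DAZAP1 with 7 reads, and 20 in GFP, led by IMPG1 with 32.9 reads of which 0 map to one place. In experiment 2, 2 of the 16 exon and intron regions of GFP-(GR)50 overlapped a region of the second GFP-(GR)50 list. Both lay in the mitochondrial 16S rRNA copies, MTRNR2L8 and MTRNR2L4. Of the 35 of GFP, 3 overlapped it, in HIST1H3B, MTRNR2L1 and EEF2.

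Gene lists were read by how many members had a region. Of 14 genes for 7SK, 7SL, Y, vault, RNase P and MRP RNA, 2 had a region in GFP-(GR)50 and 8 in GFP. Y5, which is annotated as HY5, is not counted in these numbers, though it had a region in both lists. Of 24 snRNA genes, 9 and 17 had one, and of 7 genes for U3, U8 and U13, 1 and 6. Of 47 genes for ribosomal proteins and translation factors, 1 (RPL37A, an intron) had one in GFP-(GR)50. Of 16 nucleolar genes, NOP56 had one in GFP-(GR)50, at its snoRNA SNORA51, and NPM1 had one in GFP, in an intron. Of a list of 7 nuclear lncRNAs, MALAT1 alone had a region, in GFP. The lncRNA XIST is not counted in that list, though it had regions in both lists of experiment 1. It had 77.75 reads in 10 regions of GFP and 5 in 1 region of GFP-(GR)50. GFP was higher by 28.8-fold scaled to all listed reads, and also higher scaled to reads outside rRNA. Scaled without the units the direction of XIST turned, with GFP-(GR)50 higher by 1.22-fold. Of 10 histone genes, H3C2, listed under its older symbol HIST1H3B, had one in GFP. No member of the lists for stress granule and RNA-binding proteins (21 genes), chaperones (12), cytoskeleton (10), or ALS and FTD genes (16) had a region in either list. The 5 kinds of rRNA had regions in both. Of all deposited names, 109 had a region in GFP-(GR)50 and 278 in GFP, 64 of them in both.

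Of the 183 GFP-(GR)50 regions, 102 (55.7%, 48.2 to 63.1) overlapped a GFP region, and of the 472 GFP regions 106 (22.5%, 18.8 to 26.5) overlapped a GFP-(GR)50 region. Those shared places held 97.5% of the GFP-(GR)50 reads and 71.1% of the GFP reads. The regions found on one side only had fewer reads, at most 148 reads in GFP-(GR)50 and 304 in GFP, the latter a tRNA-Arg-CGA on chromosome 15. Of the 81 GFP-(GR)50 regions without a match, 55 (67.9%) overlapped the second GFP-(GR)50 list, 2 (2.47%) the untransfected list and 0 the GFP-(GP)10 list. By kind this was 43 of 49 in rRNA and 12 of 32 outside it. Of the 366 GFP regions without a match, 83 (22.7%), 40 (10.9%) and 72 (19.7%) overlapped those lists in that order. The lists of experiment 2 differ in size, with 805, 1339 and 348 regions, so shares in different lists are not on one scale. In scattered rRNA copies they hold 107, 32 and 16 regions in that order, so fewer overlaps in rRNA were possible with the controls.

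**Figure D5:**
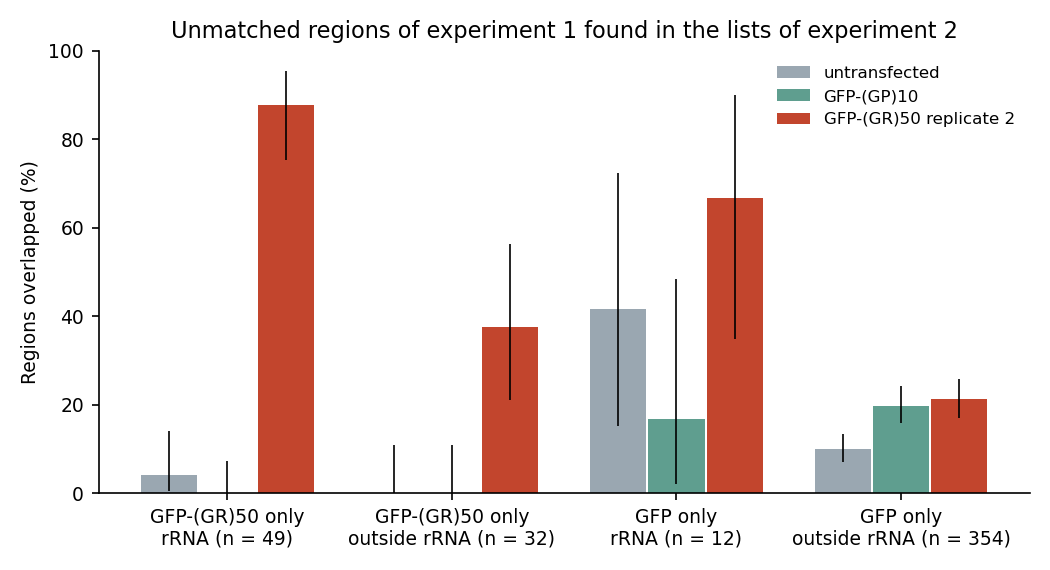
Share of regions found only in GFP-(GR)50 or only in GFP (horizontal, parted into rRNA and other) that overlap a region in each list of experiment 2 (vertical, %), with exact 95% intervals. In rRNA, 87.8% of the GFP-(GR)50-only regions overlap the second GFP-(GR)50 list, against 4.08% for untransfected cells and 0 for GFP-(GP)10. Those lists hold 107, 32 and 16 regions in scattered rRNA copies, in that order.

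Region width followed the RNA class. The median was 162 bp (quartiles 58.5 and 264) in GFP-(GR)50 and 69 bp (47 and 118) in GFP. Within rRNA it was 202.5 bp in GFP-(GR)50 and 293 bp in GFP, so the order turned, and outside rRNA it was 80 bp and 60 bp. Reads that map to one place were 2.83% of listed reads in GFP-(GR)50 and 20.4% in GFP. Outside rRNA they were 13.8% and 52.6%.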

How the data were processed

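CLIP-Seq region lists of 5 libraries were used, 1 library a side in experiment 1. Each list gives per region a position, strand, width, gene name, RNA type and read numbers. Per the file headers, the deposited counts are reads that map to one place, and the deposited expected counts (estimated counts, not whole) are reads with multimapping reads scaled. The submitters' processing notes name UMI-tools 1.1.2, Novoalign 4.03.03, featureCounts 2.0.2 and bedtools 2.30.0, with the builds hg38 and GRCh38.p13. The role of each tool, the scaling factor and the threshold for a region are not given in these sources. Positions are those of the files, whose counting base is unstated; sequences were read taking starts as counted from 0. Multimapping reads spread over copies of rRNA, tRNA and snRNA genes, so copies are not separate measurements, and the annotation given to a region decides its class.

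Every region was placed in 1 of 14 classes from its deposited annotation. Regions were matched by at least 1 bp on the same strand. An rRNA repeat unit was taken as any rRNA region of at least 1000 bp and the 5000 bp on each side of it, and other rRNA regions were called scattered copies. Names were compared as reads scaled to all listed reads or to those outside rRNA, and called at 4-fold, with a name without a region set at 5 reads and never called higher in that list. No test between conditions was made, since a side has 1 library. Intervals are 95% Clopper-Pearson from SciPy 1.17.1, on counts rounded to whole numbers, under Python 3.11.15 with pandas 2.3.3. The steps were checked on simulated lists with known answers. Total depth is unknown, so nothing can be said of RNA below the 5 reads that the weakest listed regions have.

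Named were names in both lists, those with most reads, up to 10 exon names a list, the 5 widest regions, up to 4 members of each of 12 gene lists, the leading tRNA species, and names farthest apart under both scalings. Single copies of rRNA, 7SK and other small RNAs named beyond this were chosen after their values were seen. The regions and gene lists were chosen with earlier results of these data known. Older gene symbols were matched through RefSeq synonyms. Alternatives changed the count column, the definition of rRNA and tRNA, the overlap, the minimum reads and the list size. Sequences are from RefSeq tables on GRCh38.p14; those of rRNA regions are not shown here. The GFP count of the list for ribosomal proteins and translation factors is not reported here.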

Additional observations from a re-analysis of the deposited data

How the results depend on the processing

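Of 72 alternative values, 28 stayed within the counting interval (counts within 1.5 times) and 44 moved. Whether an order between the lists reversed was not scored. One order did turn: names past 4-fold outside rRNA went from 22 and 19 to 1 and 2 among names in both lists. The cause of a move was not tested beyond what the setting itself changes. Values are given for GFP-(GR)50 and then GFP. The rRNA share of reads was 85.9% and 6.95% with reads that map to one place, 46.6% and 32.4% with annotated rRNA genes alone, 97.5% and 66.1% with regions of at least 10 reads, and 99.0% in GFP-(GR)50 with unannotated regions of repeat units as rRNA. The tRNA share outside rRNA was 11.1% and 73.9% with reads that map to one place and 1.16% and 79.5% with at least 10 reads. It was 6.29% in GFP-(GR)50 with the repeat units as rRNA, and 79.1% in GFP with regions on RefSeq tRNA genes added. The share mapping to one place was 13.8% and 52.6% without rRNA and 2.50% and 19.0% with at least 10 reads. Regions matched were 39.9% and 15.5% with 50% overlap of both, 39.3% and 32.2% with the top 183 of each list, and 47.8% and 8.65% without rRNA. The median width was 80 and 60 bp without rRNA and 205 and 74 bp with at least 10 reads, and 74 bp in GFP with the top 183. Names in both lists numbered 9 with at least 10 reads. Scaled to all reads, names past 4-fold with reads that map to one place were 8 and 16, and 11 in GFP among names in both lists. Outside rRNA, 1 was past it in GFP with reads that map to one place, and among names in both lists 1 and 2 were. Of regions found only in GFP-(GR)50, 55.6% were in the second GFP-(GR)50 list with 50% overlap and 37.5% without rRNA, and 0 were in the untransfected list without rRNA.

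The 28S to 18S ratio of scattered copies itself, the following settings and the RefSeq tRNA definition were chosen after seeing the data. With precursor regions in a 28S locus counted as 28S, 0 names were past 4-fold in GFP-(GR)50 scaled to all reads. Without the unannotated regions of repeat units, 5 were in GFP scaled to reads outside rRNA. The 28S to 18S ratio in GFP-(GR)50 was 2.73 at copies in both lists, 4.51 with at least 10 reads and 4.93 with the top 41 copies, and in GFP 0.287 with reads that map to one place. No paired analysis was possible because each side of experiment 1 is 1 library. Leaving out a replicate was not possible for the same reason.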

Other observations

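A few regions of 21 or 22 bp with many reads lay outside any annotated feature on their strand. The region chr1:171600929-171600951 on the minus strand, opposite MYOCOS, had 424.5 reads in GFP, of which 423 map to one place, and 6 reads in GFP-(GR)50. The region chr19:57513043-57513064 on the minus strand was listed with 88.0 reads by GFP and with 8 by GFP-(GR)50, all mapping to one place. Neither place had a region in the 3 lists of experiment 2. Found in GFP alone, and in no other list, were chr5:52305007-52305029 with 38.4 reads, a place in an intron of IMPG1 with 32.9 and a place in LINC00621 with 17.0. Regions of at most 30 bp were 7.42% of the GFP regions and 7.65% of the GFP-(GR)50 regions, and held 11.4% and 5.30% of the reads that map to one place.

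In GFP, 6 regions that the files list without a feature lay on RefSeq tRNA genes. They held 316 reads, of which 235.5 lay at a glycine tRNA gene, TRG-CCC2-2, on chromosome 16.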
